A study of Homo sapiens with 5 samples.

Results

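Chromatin genes are described here in irradiated LNCaP cells with and without a hairpin against RB1. The group holds gene families known for modifying histones or DNA, or for moving nucleosomes, although some members act outside the nucleus. The genes were chosen by symbol alone: KDM, KMT, KAT with a digit, HDAC, SIRT with a digit, SETD, SMARC, CHD with a digit, DNMT, TET with a digit, EZH and ARID, without chromosome 21, chromosome Y, pseudogenes and antisense transcripts. Of the 14812 genes tested, 81 fitted this rule. RefSeq lists 107 protein-coding genes that the rule would take, and the other genes of that list, among them the SMARC genes, are not analysed here.

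LNCaP is a human prostate cancer cell line that responds to androgen. The 3 shRB arrays come from LNCaP cells carrying a retroviral short hairpin RNA against RB1, and the 2 shControl arrays from LNCaP cells carrying a scrambled hairpin. Both populations were grown in 5% serum under puromycin selection, received 10 Gy of ionizing radiation and gave total RNA at 24 h. No unirradiated cells enter the comparison, which therefore sets shRB against shControl after irradiation in both. The labels name no clones and no cultures behind the arrays, so each p-value reflects the spread between arrays alone, and that spread may be technical.

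The retinoblastoma protein RB binds E2F transcription factors at the promoters of cell cycle genes and is known to bring histone deacetylases, methyltransferases and remodelling complexes to them. Writers add acetyl or methyl groups to histone tails, erasers remove them, and remodellers use ATP to slide or evict nucleosomes. DNA methyltransferases add methyl groups to cytosine and TET enzymes oxidise them. In prostate cancer the Polycomb methyltransferase EZH2, the remodeller CHD1 and the enhancer methyltransferases KMT2C and KMT2D are familiar for overexpression, deletion or mutation.

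Because RB acts through E2F sites, the promoter windows of these genes were searched for 4 forms of the E2F letters, TTTCCCGC, TTTCGCGC, TTTGCCGC and TTTGGCGC, on both strands. A RefSeq window (GRCh38.p14) of 250 bases before to 50 bases after the start was found for 72 of the 81 genes. Of these 72 windows, 5 (6.94%) held a match, against 4.50% of the 10736 windows of genes tested and 3.33% of all 27305 windows in the table. The median share of G and C bases was 66.8%, 63.3% and 58.3% in the same order. The part of base composition in the shares of windows with a match was not tested. No matches overlapped. The 5 windows are printed on the gene's strand because they are the promoters in this group that hold the letters, with the matches in capitals.
EZH2: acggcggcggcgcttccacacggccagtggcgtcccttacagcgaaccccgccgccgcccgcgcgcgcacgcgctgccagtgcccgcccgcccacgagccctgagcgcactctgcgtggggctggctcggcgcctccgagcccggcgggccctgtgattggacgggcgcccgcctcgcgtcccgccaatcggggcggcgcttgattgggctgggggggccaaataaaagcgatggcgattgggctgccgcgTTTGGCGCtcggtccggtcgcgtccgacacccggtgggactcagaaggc
DNMT1: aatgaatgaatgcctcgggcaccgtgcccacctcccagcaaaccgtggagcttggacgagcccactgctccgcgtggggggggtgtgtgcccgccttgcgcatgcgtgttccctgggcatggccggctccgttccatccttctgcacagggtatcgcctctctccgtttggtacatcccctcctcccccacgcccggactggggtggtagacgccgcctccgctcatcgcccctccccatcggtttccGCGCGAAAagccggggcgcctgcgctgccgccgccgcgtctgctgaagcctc
EZH1: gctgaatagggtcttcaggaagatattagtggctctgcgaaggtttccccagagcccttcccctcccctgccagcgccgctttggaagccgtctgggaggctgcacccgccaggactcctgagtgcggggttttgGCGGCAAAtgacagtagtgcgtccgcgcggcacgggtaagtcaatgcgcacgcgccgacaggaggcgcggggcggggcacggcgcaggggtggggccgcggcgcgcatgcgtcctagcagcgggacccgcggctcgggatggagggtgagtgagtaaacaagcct
KDM1B: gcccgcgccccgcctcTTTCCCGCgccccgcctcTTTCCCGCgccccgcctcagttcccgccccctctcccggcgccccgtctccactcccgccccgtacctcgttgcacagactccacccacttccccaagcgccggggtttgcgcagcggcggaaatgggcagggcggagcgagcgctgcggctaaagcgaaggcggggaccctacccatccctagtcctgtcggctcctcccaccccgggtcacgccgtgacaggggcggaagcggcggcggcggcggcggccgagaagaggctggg
SIRT6: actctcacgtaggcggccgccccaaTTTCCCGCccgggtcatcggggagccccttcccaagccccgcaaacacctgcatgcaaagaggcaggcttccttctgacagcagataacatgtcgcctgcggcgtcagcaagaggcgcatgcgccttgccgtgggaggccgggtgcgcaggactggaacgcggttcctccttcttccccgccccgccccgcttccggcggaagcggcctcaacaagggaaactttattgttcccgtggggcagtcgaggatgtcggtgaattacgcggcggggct

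The EZH2 window lies at chr7:148884242-148884541 (minus strand), and its match begins 1 base after the start. In DNMT1 (chr19:10194904-10195203, minus strand) the match begins 2 bases before the start and reads on the opposite strand, as does that of EZH1 (chr17:42744991-42745290, minus strand), which begins 115 bases before it. KDM1B (chr6:18155172-18155471, plus strand) holds the same letters in 2 copies of a repeat, 234 and 216 bases before its start. The SIRT6 match (chr19:4182514-4182813, minus strand) begins 225 bases before the start. These are matches of letters, and binding was not measured.

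Deposited values are probe set intensities whose lowest value lies just above 16 on every array, so that a log2 intensity near 4 is at the floor. Median intensities ran from 27.38 to 27.95 in shRB and from 26.65 to 28.06 in shControl, and the number of arrays limits the precision. Prostate luminal markers were present: 6 of 9 listed were measured, with mean log2 intensities of 6.56 to 10.08 in shRB and 6.33 to 10.13 in shControl. Markers of other cells, 5 measured of 12 listed, had means of 4.27 to 5.80 in shRB and 4.47 to 6.47 in shControl. None of these 11 markers passed the test. The summed intensity of the 5 other-cell markers, with 16 taken off each, was 98.4 to 108 in shRB, against 105 and 163 in shControl replicates 1 and 2. shControl replicate 2 stood apart through GFAP, an astrocyte marker, at a log2 intensity of 5.71 to 5.97 in shRB, against 5.90 and 7.05 in shControl, and the part of this array in the differences was not tested beyond leaving it out. RB1 itself had log2 intensities of 5.16, 5.28 and 5.20 in shRB, against 5.81 and 5.70 in shControl. Its arrays did not overlap, and the difference of -0.54 (SE 0.14, limma adjusted p = 0.0967) did not pass over all genes. RB1 was 1.46-fold lower as deposited. With 16 taken off the linear values it averaged 21.1 in shRB, against 38.1 in shControl.

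None of the 81 chromatin genes passed the threshold of 0.05 in the comparison of shRB with shControl (limma, Benjamini-Hochberg over 14812 genes), where 1.07% of all genes passed. At an unadjusted p under 0.05 there were 14 chromatin genes (17.3%), against 18.1% of all genes. Of the 81 genes, 65 lay at or above the median level of all genes, and 13 of these 65 had such a p-value, a smaller share than the 23.3% of all genes at those levels. The differences ran from -0.68 for the deacetylase SIRT7 to 0.74 for the acetyltransferase KAT2B, and 6 of the 81 exceeded 0.5 in size on the log2 scale. The 32 positive and 49 negative differences had a median of -0.04, beside 0.02 over all genes. In bulk RNA, fewer cells with a transcript and less of it per cell cannot be told apart.

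**Figure D1:**
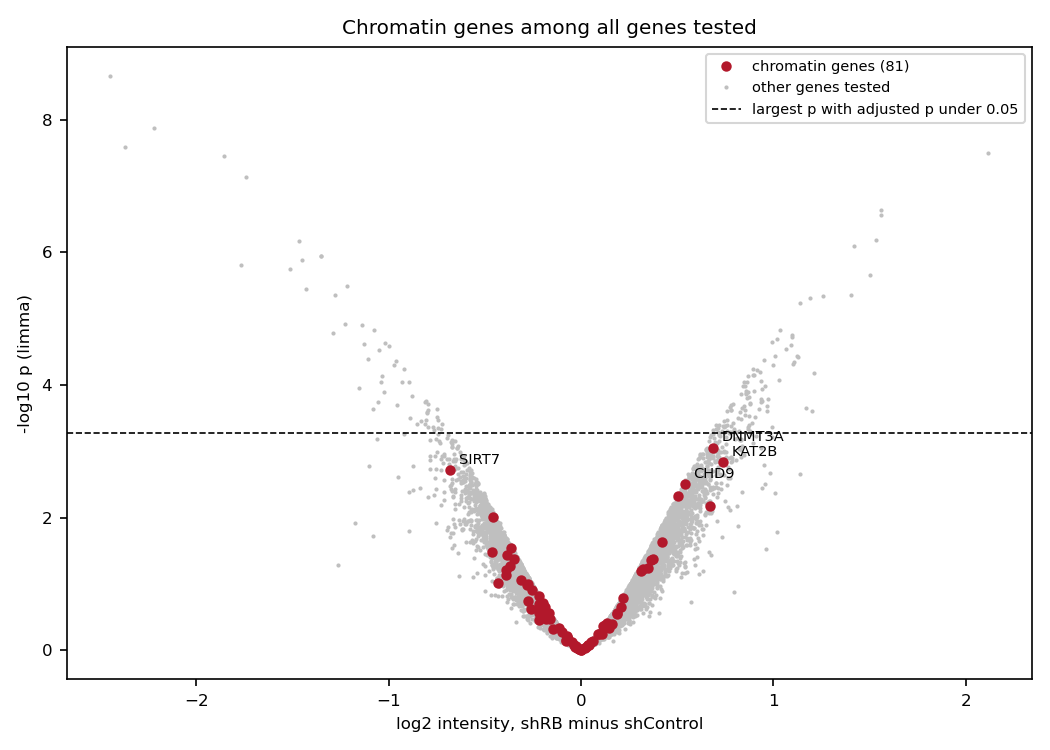
Log2 difference of shRB minus shControl (x axis) against -log10 of the limma p-value (y axis) for each gene tested, with the 81 chromatin genes in red and the other genes in grey. No chromatin gene reaches the dashed line above which adjusted p is under 0.05, and DNMT3A comes nearest at an adjusted p of 0.0634.

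Arrays that did not overlap between groups were seen for 31 of the 81 genes (38.3%), a share close to the 36.0% of all genes. Every shRB array lay above both shControl arrays in 13 of the 81, where 20.6% of all genes did so, and below both in 18 (22.2%, against 15.4%). At or above the median level the groups did not overlap for 27 of 65 chromatin genes (41.5%), against 43.3% of all genes there. Of these, 12 lay above (18.5%, against 24.7%) and 15 below (23.1%, against 18.7%). The plot of the 20 genes with the smallest p-values shows these values by array. None of the counts below is a test of a class, and no class was tested against the rest.

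**Figure D2:**
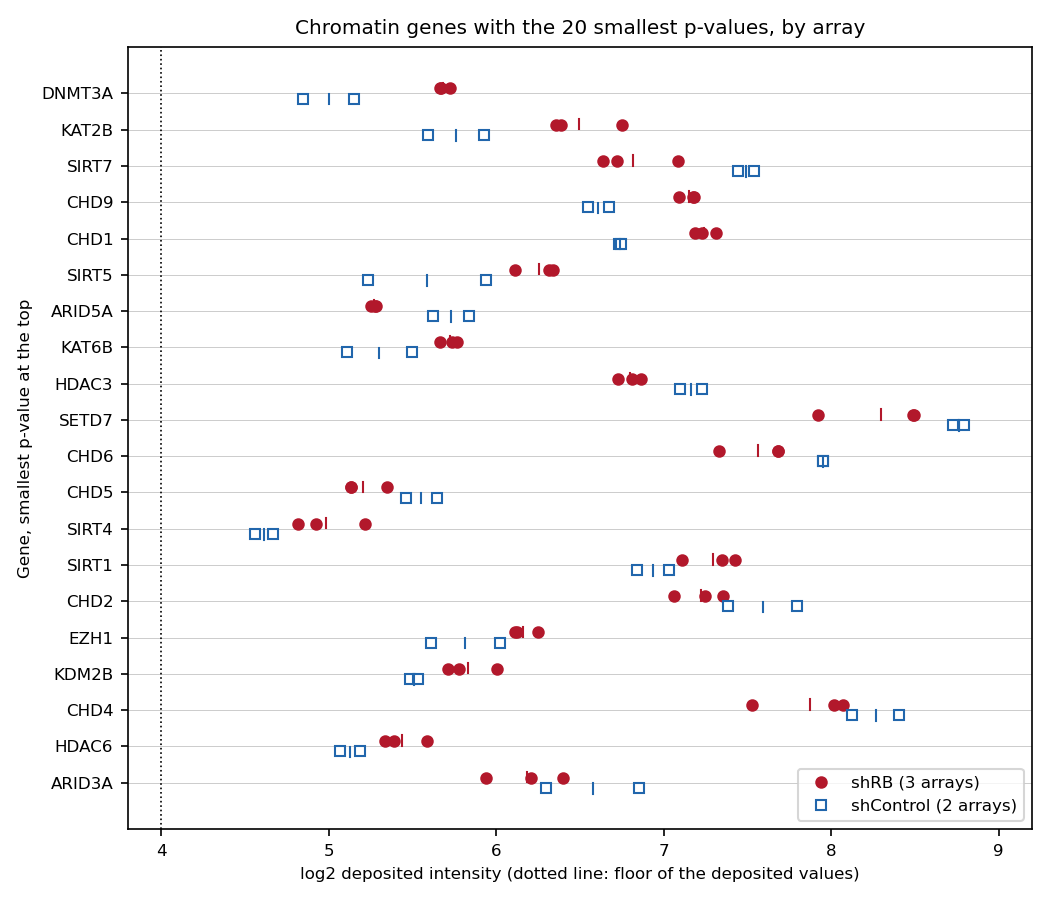
Log2 deposited intensity (x axis) of the 20 chromatin genes with the smallest p-values (y axis), with red circles for the 3 shRB arrays, open blue squares for the 2 shControl arrays and short bars for group means. The groups do not overlap in 19 of the 20 genes, ARID3A being the exception, and 11 of the 19 lie higher in shRB. Choosing genes by small p-values on these arrays favours groups that do not overlap.

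Among DNA methyltransferases and TET enzymes, 5 genes were measured and none passed. The smallest p-value of all 81 genes belonged to DNMT3A, which sets new DNA methylation. Its log2 intensity was 5.67, 5.72 and 5.67 in shRB replicates 1 to 3, against 5.15 and 4.85 in shControl replicates 1 and 2. The shRB arrays lay close together and all above shControl, whose 2 arrays were further apart. On the log2 scale shRB averaged 5.68 ± 0.03 (SD, n = 3), against 5.00 ± 0.21 (SD, n = 2) for shControl. The log2 difference was 0.69 (SE 0.15, adjusted p = 0.0634), 1.61-fold higher on the deposited scale, or 2.19-fold with 16 taken off the linear values.

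DNMT3B, the paralog of DNMT3A, had log2 intensities of 5.18, 5.11 and 4.98 in shRB, against 5.52 and 5.22 in shControl. All 3 shRB arrays were below shControl, by -0.28 (adjusted p = 0.376). Maintenance methylation depends on DNMT1, whose promoter holds the E2F letters shown above. It stood at 7.92, 7.85 and 7.61 in shRB, against 7.73 and 7.94 in shControl, and the groups overlapped. The difference was -0.04 with a 95% interval of -0.39 to 0.32. TET1 (-0.07, interval -0.39 to 0.24) and TET2 (-0.07, interval -0.39 to 0.25), which oxidise methylcytosine, also had overlapping arrays.

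Histone acetyltransferases numbered 7, with differences from -0.43 to 0.74, a median of 0.01 and none past the threshold. KAT2B, also known as PCAF, acetylates histones and the p53 protein. It had log2 intensities of 6.75, 6.36 and 6.38 in shRB, against 5.93 and 5.59 in shControl. Every shRB array was above shControl. KAT2B differed by 0.74 (SE 0.18, adjusted p = 0.0744), the largest positive difference of the 81 genes, 1.67-fold as deposited and 1.95-fold with 16 taken off.

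KAT6B, an acetyltransferase of the MYST family, stood at 5.66, 5.77 and 5.74 in shRB, against 5.50 and 5.11 in shControl. It was higher in every shRB array, by 0.42 (adjusted p = 0.204), or by 0.23 without shControl replicate 2. KAT14, a subunit of the ATAC complex, had 5.99, 6.26 and 5.70 in shRB, against 6.82 and 6.01 in shControl. Its shControl arrays were further apart than the group means, at -0.43 (adjusted p = 0.365). KAT5, known as TIP60 and for acetylating the damage kinase ATM, differed by 0.03 (95% interval -0.32 to 0.39), and KAT2A, the GCN5 acetyltransferase and paralog of KAT2B, by -0.03 (95% interval -0.36 to 0.30). The groups overlapped for both.

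Deacetylases fell into 11 HDAC genes and 7 sirtuins, and none of the 18 passed. Sirtuins use NAD and act in the nucleus, the cytoplasm or mitochondria. The groups did not overlap in 5 of the 7 sirtuins, with SIRT5, SIRT4 and SIRT1 above shControl and SIRT7 and SIRT3 below, and in 3 of the 11 HDAC genes (27.3%), beside 36.0% of all genes. SIRT7, a nuclear and nucleolar sirtuin linked to ribosomal RNA synthesis, had the largest negative difference of the 81 genes. Its log2 intensity was 7.08, 6.72 and 6.64 in shRB replicates 1 to 3, against 7.54 and 7.44 in shControl replicates 1 and 2. The shRB arrays spread more widely than the shControl arrays and all lay below them. SIRT7 thus differed by -0.68 (SE 0.17, adjusted p = 0.0845), 1.60-fold lower as deposited and 1.68-fold lower with 16 taken off.

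SIRT5, a mitochondrial sirtuin that removes succinyl groups, had 6.31, 6.11 and 6.34 in shRB, against 5.94 and 5.24 in shControl. The 3 shRB arrays lay above both shControl arrays, which differed from each other by more than the group means did. The difference was 0.67 (SE 0.20, adjusted p = 0.123). Without shControl replicate 1 it passed, at a difference of 1.02 (adjusted p = 0.0233), and without shControl replicate 2 the difference was 0.32 (adjusted p = 0.339). SIRT1, which deacetylates p53 and histones, stood at 7.43, 7.35 and 7.11 in shRB, against 7.03 and 6.84 in shControl. It was higher in all shRB arrays, by 0.36 (adjusted p = 0.261).

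Of the other mitochondrial sirtuins, SIRT4 had 4.93, 5.21 and 4.81 in shRB, against 4.56 and 4.66 in shControl, above shControl throughout, with a difference of 0.37 (adjusted p = 0.259) at levels near the floor. SIRT3 was below shControl throughout, at -0.28 (adjusted p = 0.371). SIRT6, a chromatin sirtuin whose promoter holds the E2F letters, had 4.99, 4.52 and 4.88 in shRB, against 5.15 and 4.45 in shControl. Its shControl arrays bracketed all 3 shRB arrays, and the difference was 0.00 as rounded, with a 95% interval of -0.48 to 0.47. The levels of SIRT6 are also near the floor, where differences are compressed.

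The HDAC genes had 8 negative and 3 positive differences with a median of -0.16. HDAC3, the catalytic subunit of the NCoR and SMRT corepressor complexes, stood at 6.87, 6.73 and 6.81 in shRB, against 7.10 and 7.23 in shControl. All shRB arrays were below shControl, by -0.36 (adjusted p = 0.222). HDAC1, a partner of RB at E2F promoters, had 8.44, 8.39 and 8.15 in shRB, against 8.64 and 8.45 in shControl. The highest shRB array lay just below the lower shControl array, and the difference was -0.22 (adjusted p = 0.504).

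HDAC2, the close paralog of HDAC1, was read by 2 probe sets that differ in sign. The brighter probe set, which stands for the gene here, averaged 9.57 in shRB, against 9.73 in shControl (difference -0.16). The other averaged 5.38 in shRB, against 4.88 in shControl (difference 0.50). The median of the HDAC genes is the value of the brighter probe set. That median and the count of signs therefore depend on the probe set chosen. HDAC6, a cytoplasmic deacetylase of tubulin, had 5.59, 5.39 and 5.33 in shRB, against 5.19 and 5.07 in shControl. It was above shControl on every shRB array, at 0.31 (adjusted p = 0.307). The other 7 HDAC genes had overlapping arrays.

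Methyltransferases of histone lysines numbered 15, none of which passed; 5 differences were positive and 10 negative, and their median was -0.01. SETD7, which methylates histone H3 and many other proteins, had log2 intensities of 8.49, 8.49 and 7.92 in shRB, against 8.79 and 8.73 in shControl. The shRB arrays were all below shControl, replicate 3 by the most. SETD7 differed by -0.46 (SE 0.19, adjusted p = 0.231), and without shRB replicate 3 the difference was -0.27. EZH1 and EZH2 are the alternative catalytic subunits of Polycomb repressive complex 2. EZH1 stood at 6.25, 6.11 and 6.12 in shRB, against 6.02 and 5.61 in shControl, above shControl on all shRB arrays by 0.35 (adjusted p = 0.291). Without shControl replicate 1 EZH1 differed by 0.55, and without shControl replicate 2 by 0.14.

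EZH2 is an E2F target gene whose window above has a match beside the start. It had 6.41, 6.25 and 6.47 in shRB, against 6.01 and 6.34 in shControl. The second shControl array lay among the shRB arrays, and the difference of 0.21 (95% interval -0.15 to 0.56) did not pass (adjusted p = 0.536). KMT2C and KMT2D write the methyl mark of enhancers. KMT2C was below shControl on all shRB arrays, by -0.20 (adjusted p = 0.497), and KMT2D had overlapping arrays at -0.18 (adjusted p = 0.635).

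SETD2, which methylates histone H3 along transcribed genes, had a mean of 6.49 in each group and a 95% interval of -0.42 to 0.42. KMT5A, the cell cycle-regulated methyltransferase of histone H4, differed by 0.03 (95% interval -0.30 to 0.37). SETD5 (-0.17) and SETD9 (-0.22) were below shControl on all shRB arrays with adjusted p-values of 0.581 and 0.449.

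Demethylases of the KDM group numbered 18, and their differences, from -0.28 to 0.32, spanned less than those of any other class here. None had an unadjusted p under 0.05, beside 18.1% of all genes, and 5 (27.8%) had arrays that did not overlap, beside 36.0%. KDM2B, which binds unmethylated CpG islands and brings Polycomb complexes to them, stood at 6.01, 5.71 and 5.78 in shRB, against 5.48 and 5.53 in shControl. It was above shControl on every shRB array, by 0.32 (adjusted p = 0.292). KDM1A, known as LSD1, was above shControl by 0.12 (95% interval -0.20 to 0.43), with arrays that lay close together in both groups.

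KDM3A, an androgen receptor coactivator, was below shControl on all shRB arrays at -0.26 (adjusted p = 0.405), as were KDM6A, an eraser of the Polycomb mark, at -0.19 (adjusted p = 0.534) and KDM4A at -0.21 (adjusted p = 0.539). KDM6B, the paralog of KDM6A, had overlapping arrays at -0.21 (adjusted p = 0.531). KDM5A was first known as a protein that binds RB. It had 6.50, 6.59 and 6.36 in shRB, against 6.51 and 6.65 in shControl, with overlapping groups and a difference of -0.10 (95% interval -0.43 to 0.23). KDM5B, its paralog, differed by -0.05 (95% interval -0.38 to 0.28). KDM1B, whose promoter has the repeated E2F letters, had 6.30, 6.25 and 6.08 in shRB, against 6.81 and 6.16 in shControl. The second shControl array lay within the range of the shRB arrays and the first above it, with a difference of -0.28 (adjusted p = 0.487).

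**Figure D3:**
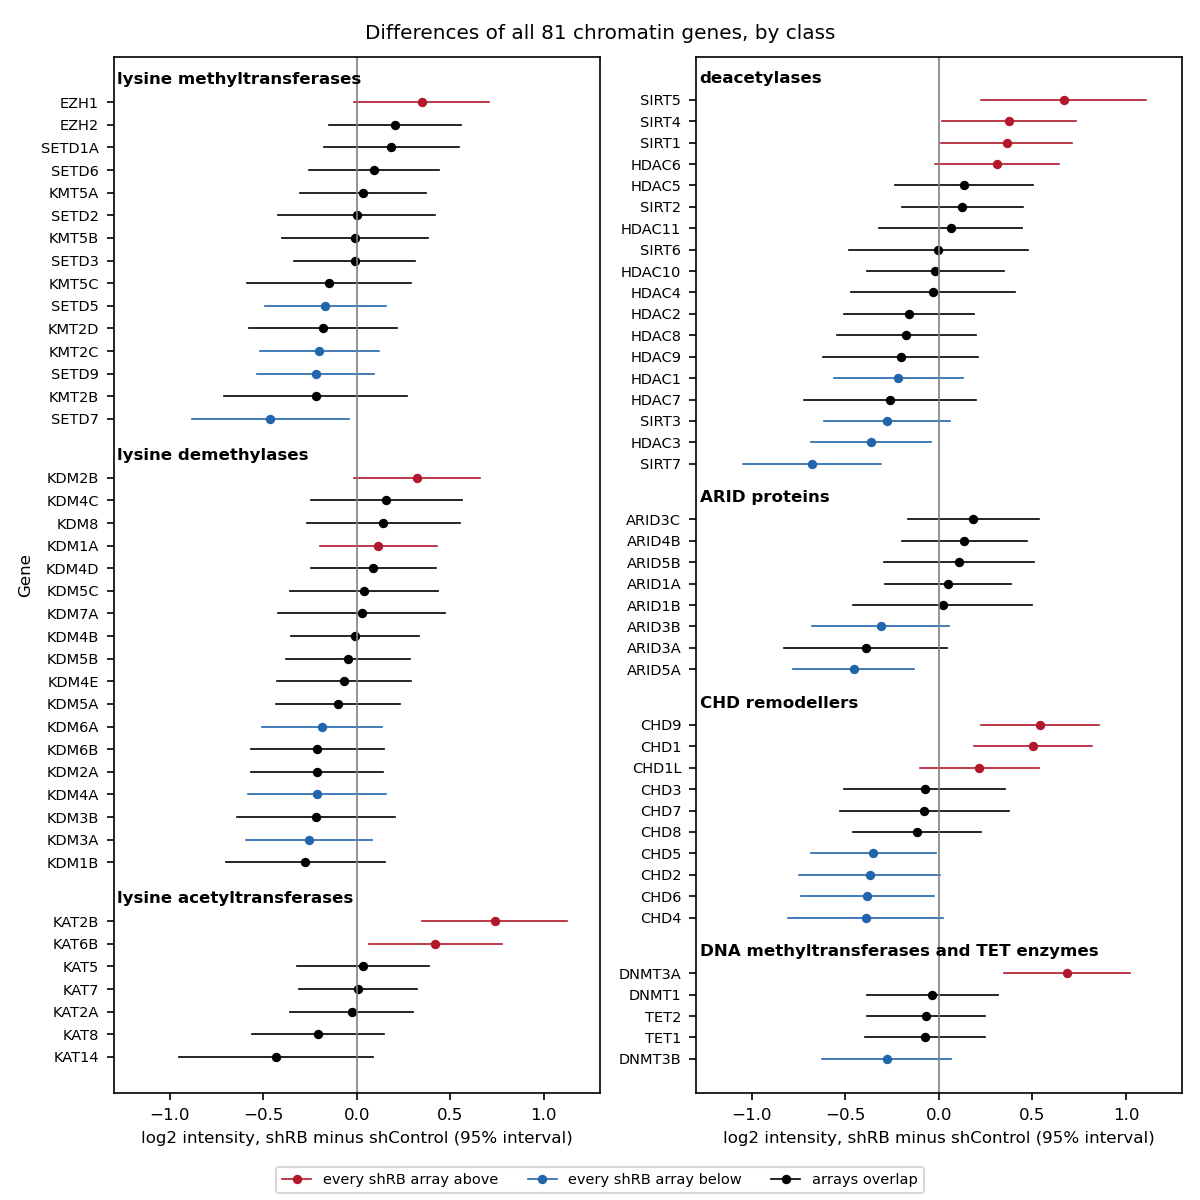
Log2 difference of shRB minus shControl (x axis) with its 95% interval from limma for each of the 81 chromatin genes (y axis), by class. Red marks the 13 genes with every shRB array above shControl and blue the 18 with every shRB array below it. Black marks the genes with overlapping arrays, and each class has genes on both sides of 0.

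CHD remodellers were measured for 10 genes, and none passed. They are ATPases that carry paired chromodomains, apart from CHD1L, which has none. In 7 of the 10 the groups did not overlap (36.0% of all genes), with 3 above shControl (20.6% of all genes) and 4 below (15.4%). All 10 lay above the median level, where the shares of all genes were 43.3%, 24.7% and 18.7% in the same order. CHD9 had log2 intensities of 7.18, 7.18 and 7.09 in shRB replicates 1 to 3, against 6.55 and 6.67 in shControl replicates 1 and 2. The shRB arrays lay close together and apart from both shControl arrays. CHD9 differed by 0.54 (SE 0.14, adjusted p = 0.0973), 1.45-fold higher as deposited and 1.54-fold with 16 taken off.

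CHD1 acts at transcribed genes and is deleted in a subset of prostate cancers. It stood at 7.19, 7.31 and 7.23 in shRB, against 6.74 and 6.75 in shControl. The shControl arrays were nearly equal and all shRB arrays lay above them. The group difference was 0.50 (SE 0.14, adjusted p = 0.11), 1.42-fold higher as deposited. CHD1L, a remodeller that binds poly(ADP-ribose) at damaged DNA, was above shControl on all shRB arrays by 0.22 (adjusted p = 0.465).

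CHD6 had 7.69, 7.68 and 7.33 in shRB, against 7.95 and 7.95 in shControl. The shControl arrays were equal to 2 decimals and above all shRB arrays, the difference being -0.38 (adjusted p = 0.242). CHD4, the ATPase of the NuRD deacetylase complex, had 8.07, 8.02 and 7.53 in shRB, against 8.13 and 8.40 in shControl. All shRB arrays were lower, replicate 3 by the most, with a difference of -0.39 (adjusted p = 0.302), or -0.22 without that array and -0.25 without shControl replicate 2. CHD2 stood at 7.25, 7.35 and 7.06 in shRB, against 7.39 and 7.80 in shControl, below shControl throughout at -0.37 (adjusted p = 0.283). CHD2 differed by -0.57 without shControl replicate 1 and by -0.16 without shControl replicate 2.

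CHD5, a remodeller best known from neurons, had 5.13, 5.34 and 5.13 in shRB, against 5.65 and 5.46 in shControl. It was lower on every shRB array, by -0.35 (adjusted p = 0.259). CHD8, which binds beta-catenin, had overlapping arrays and a difference of -0.12 (95% interval -0.46 to 0.22). CHD1 and CHD9 thus lay above shControl, and CHD2, CHD4, CHD5 and CHD6 below it, without any of them passing the test.

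ARID proteins share an AT-rich interaction domain, and 8 were measured, with a median difference of 0.03. ARID5A, which binds RNA as well as DNA, stood at 5.25, 5.28 and 5.28 in shRB, against 5.62 and 5.84 in shControl. The shRB arrays lay close together and below both shControl arrays. ARID5A differed by -0.46 (SE 0.15, adjusted p = 0.146). ARID3A, which binds E2F1, had 6.21, 6.40 and 5.94 in shRB, against 6.30 and 6.85 in shControl. shRB replicate 2 was above shControl replicate 1, and the difference was -0.39 (adjusted p = 0.324). ARID3B, near the floor with a mean of 4.88 in shRB, was below shControl throughout at -0.31 (adjusted p = 0.351). Without shControl replicate 1 ARID3A differed by -0.67 and ARID3B by -0.54, and without shControl replicate 2 by -0.11 and -0.08.

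ARID1A and ARID1B are alternative subunits of the SWI/SNF remodelling complex. ARID1A differed by 0.05 (95% interval -0.29 to 0.39) and ARID1B by 0.02 (95% interval -0.46 to 0.50). ARID4B, a subunit of the SIN3 deacetylase complex, differed by 0.14 (95% interval -0.20 to 0.47). The groups overlapped for all 3.

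Some levels within a group moved with the array. With 1 array left out, the difference grew or shrank by over 1.5 times in 7 of the 20 genes with the smallest p-values, namely SIRT5, KAT6B, SETD7, CHD2, EZH1, CHD4 and ARID3A. The same held for 9 of the other 12 genes whose arrays did not overlap. Among these, without shControl replicate 1 the difference was -0.15 for SIRT3, -0.13 for DNMT3B, -0.40 for KDM3A, -0.13 for KMT2C, -0.12 for HDAC1 and -0.10 for KDM6A. Without shControl replicate 2 it was -0.43 for DNMT3B, -0.11 for KDM3A and 0.14 for CHD1L, and without shRB replicate 3 it was -0.13 for HDAC1 and -0.08 for KDM4A. shRB replicate 3 was the lowest of the shRB arrays for 43 of the 81 genes (53.1%), against 39.1% of all genes, and shRB replicate 2 for 12 (14.8%), against 30.8%. At or above the median level shRB replicate 3 was the lowest for 56.9% of chromatin genes, against 44.2% of all genes there, and shRB replicate 2 for 16.9%, against 32.8%. The 2 shControl arrays were the lower one for 40 and 41 genes. Across arrays the median log2 intensity of the 81 genes was 6.41, 6.39 and 6.32 in shRB and 6.30 and 6.36 in shControl. 

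The calls depended on how the test was set. Leaving out genes below the median level, DNMT3A (adjusted p = 0.0269), KAT2B (0.0323), SIRT7 (0.0385) and CHD9 (0.0490) passed, among 65 chromatin genes and beside 5.20% of all genes. With an intensity trend and robust variances, SIRT7 (adjusted p = 0.0199) and KAT2B (0.0308) passed, beside 2.88% of all genes. Without shControl replicate 1, DNMT3A (adjusted p = 0.0340), KAT2B (0.0423) and SIRT5 passed, beside 2.77%. That fit takes the spread from the shRB arrays and assumes that the lone shControl array varies as they do. The differences of DNMT3A, KAT2B and SIRT7 kept their signs in these settings, which could not have come out otherwise. Leaving out dim genes and changing the variances do not alter a difference. Arrays that do not overlap stay apart when 1 is left out. Without shRB replicate 1 (0.189% of all genes called), replicate 2 (0.149%) or replicate 3 (0.149%) no chromatin gene passed, and the adjusted p-values of DNMT3A were 0.223 to 0.243.

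**Figure D4:**
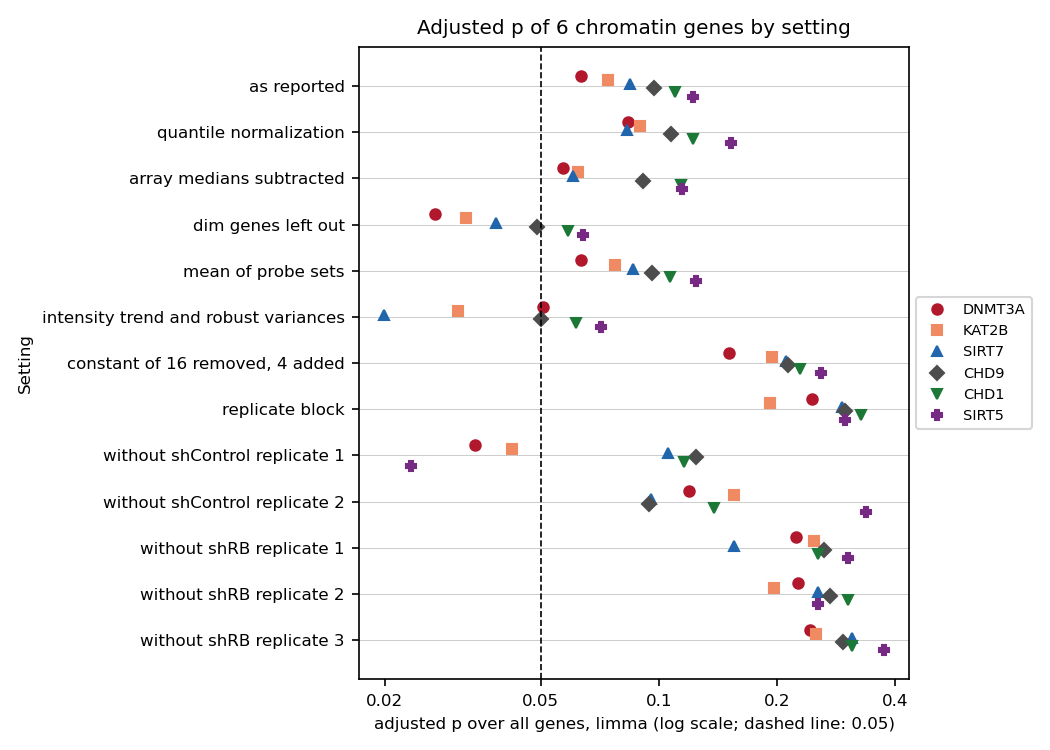
Adjusted p over all genes (x axis, log scale) of the 6 chromatin genes with the smallest p-values under each setting of the analysis (y axis). Points left of the dashed line at 0.05 occur in 3 settings, and CHD1 has none.

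Partner and related chromatin genes outside the rule were counted from 9 lists with 159 measured genes of 221 listed. None passed (limma), and 24 had an unadjusted p under 0.05 (15.1%, against 18.1% of all genes). The groups did not overlap in 53 (33.3%, against 36.0%). Polycomb subunits (22 measured, median 0.04) had 5 genes above and 2 below shControl on all shRB arrays. Of all genes, 20.6% lay above and 15.4% below, and the counts of each list stand beside these shares. PCGF5, a subunit of a variant Polycomb complex, had 5.95, 5.83 and 5.76 in shRB, against 5.37 and 4.76 in shControl. All shRB arrays were higher, by 0.78 (adjusted p = 0.0744), the smallest p-value of these lists.

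Histone readers and chaperones (18 measured, median -0.13) had 6 genes below (33.3%, against 15.4% of all genes) and 0 above (against 20.6%) shControl on all shRB arrays. TRIM28, a corepressor phosphorylated by ATM after DNA damage, stood at 7.48, 7.39 and 6.93 in shRB, against 8.04 and 7.85 in shControl. It was below shControl on every shRB array, by -0.68 (adjusted p = 0.0976). SWI/SNF subunits outside the rule (13 measured, median -0.15) had 6 genes below (46.2%, against 15.4%) and 1 above (7.69%, against 20.6%). ACTL6B, the neuronal actin-like subunit, had 5.53, 5.56 and 5.33 in shRB, against 5.83 and 6.31 in shControl, lower throughout at -0.60 (adjusted p = 0.115).

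Deacetylase corepressors (16 measured, median 0.10) had 6 genes above (37.5%, against 20.6% of all genes) and 3 below (18.8%, against 15.4%) shControl on all shRB arrays. No list was tested against the rest. Other acetyltransferases and cofactors (21 measured, median 0.05) had 3 above and 5 below, and other methyltransferases and MLL subunits (31 measured, median -0.02) had 5 above and 4 below. ISWI, INO80 and further remodellers (20 measured, median 0.09) had 3 above and 2 below. Demethylases outside the KDM prefix (7 measured, median 0.21) had 1 above and 0 below, and DNA methylation partners and readers (11 measured, median -0.01) had 0 above and 1 below.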

How the data were processed

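Probe set intensities of 5 arrays were deposited by the authors on a linear scale. How they were summarised and normalized between arrays, and with which software, is not given in the sources used here. The intensities do not go below 16, which compresses differences of dim genes. Of 44607 probe sets, 15835 named 1 gene and 28772 have no name here. RefSeq (GRCh38.p14) gave current symbols by Entrez identifier for all 15835. For 651 genes with several probe sets the brightest by mean log2 was kept, leaving 14812 genes.

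The deposited intensities were log2-transformed without further normalization and tested by limma 3.58.1 under R 4.3.3 (lmFit, eBayes, no covariates, two-sided, Benjamini-Hochberg over 14812 genes, threshold 0.05). A check on simulated data with independent noise asked only that differences put in were estimated correctly on average. It set no condition on p-values or calls. Motif matches were exact. The chromatin genes and gene lists were chosen with earlier results of these data known. Named were the 20 smallest p-values, the 3 largest differences each way and a fixed list of genes tied to RB, E2F or prostate cancer, 43 genes in all. A further 9 were named after their values were seen. Alternatives were 2 normalizations, dim genes left out, averaged probe sets, variance trend, removal of the constant, a replicate block and each array left out.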

Additional observations from a re-analysis of the deposited data

How the results depend on the processing

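Over all genes the test called 159 genes. It called 227 with array medians subtracted, 385 of 7406 with dim genes left out, 426 with an intensity trend and robust variances, 13 with the constant of 16 removed and 4 added, 24 with the replicate block and 22 to 411 with 1 array left out. Chromatin genes called numbered 0, and 4 with dim genes left out, 2 with trend and robust variances and 0 to 3 with 1 array left out. With fewer genes tested, fewer arrays, or a replicate block that takes shRB replicate 3 out of the difference, counts shift by construction. The cause of the other shifts was not tested. Arrays did not overlap in 31 chromatin genes, and in 35 to 56 with 1 array left out. Leaving out an array can only add to such a count, for other genes as well. The share of all genes in those fits is not given here, so the rise is not a result about chromatin genes. The median difference of -0.04 became -0.104 to -0.037 with 1 array left out. RB1 passed with dim genes left out at the same difference of -0.54 (adjusted p = 0.0489). Same-numbered arrays deviated from their group means with correlations of -0.02 and 0.05, so the numbers were not taken as pairs. The replicate block gave chromatin genes 0 calls. With only 24 calls over all genes in that fit, this 0 is not a result about chromatin genes.

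Of 619 values of named chromatin genes under the alternatives, 582 kept sign and side of the threshold, 9 passed and 28 turned sign. Quantile normalization turned ARID1B (-0.021) and KAT5 (-0.015). Averaging probe sets turned HDAC2 (0.17), and removal of the constant SIRT6 (0.036). The replicate block turned ARID1A (-0.040), ARID1B (-0.061), DNMT1 (0.059), KDM5B (0.00499) and SETD2 (0.12). Only shRB has a replicate 3, so the block takes that array out of the difference. These values are therefore those without shRB replicate 3, and the same 5 turns are counted under both settings. With 1 array left out the differences ran from -0.040 to 0.10 for ARID1A, -0.26 to 0.29 for ARID1B, -0.14 to 0.070 for DNMT1, -0.15 to 0.052 for KDM5B, -0.25 to 0.24 for SETD2, -0.079 to 0.15 for KAT5, -0.60 to 0.052 for KDM1B, -0.36 to 0.35 for SIRT6, -0.11 to 0.054 for KAT2A and -0.015 to 0.12 for KMT5A. The 20 genes with the smallest p-values kept their sign in each of the 12 alternatives. SIRT4 has no value with dim genes left out. Most of these outcomes were fixed in advance and are no further support. For the 19 genes whose arrays did not overlap, neither leaving out 1 array nor the replicate block can turn the sign. Leaving out dim genes and changing the variances do not alter a difference.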
